A study of Mus musculus with 16 samples.

Results

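Il11ra1, Fam205c and Fam205a1 are 3 protein-coding genes in a window of 1.3 Mb on mouse chromosome 4, out of the 54532 genes counted in the series. They were chosen by their count levels in these same libraries, which differed between the 2 groups in earlier results, so the difference between the groups is given here as a description, with no test. RNA was sequenced from parvalbumin (PV) interneurons sorted from the cortex of adult mice, 9 libraries from PV-Cre;lsl-eGFP mice and 7 from PV-Cre;lsl-eGFP-GluA2 mice. Both genotypes carry PV-Cre, in which Cre recombinase is made in PV-expressing cells, and differ in the Cre-dependent transgene, eGFP alone or eGFP fused to the AMPA receptor subunit GluA2, which was used to remove calcium-permeable AMPA receptors. The mice of the study were 113.1 ± 11.6 days old and cells were fixed in 4% paraformaldehyde before sorting, with 1 cortex per library. Strain background, sex, litter and the age of each mouse were not analysed here.

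Il11ra1 encodes the alpha chain of the receptor for interleukin-11 (IL-11), a cytokine of the IL-6 family. These cytokines bind a specific receptor chain together with the shared chain gp130, the product of Il6st, and the complex signals through JAK kinases and the transcription factor STAT3, with SOCS proteins as feedback inhibitors. Fam205a1 and Fam205c belong to the FAM205 family, which is related to the SPATA31 genes, a family known mainly from the testis. In the mouse this stretch of chromosome 4 carries many near-identical copies of Il11ra, Fam205a and of the chemokine genes Ccl19, Ccl21 and Ccl27, so short reads from one copy can match another.

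By the GENCODE M21 annotation of GRCm38, Il11ra1 (ENSMUSG00000073889) lies on the plus strand at chr4:41699989-41769474. Fam205a1 (ENSMUSG00000078721) and Fam205c (ENSMUSG00000050141) are neighbours on the minus strand at chr4:42848071-42853888 and chr4:42868004-42874234. Among the GENCODE M21 transcripts searched, every stretch of 75 bases of Fam205c was its own: 0 of 1983 occurred in another gene. The search returned no gene on scaffolds outside the assembled chromosomes, where copies of Fam205a2 and Il11ra2 lie, so it may not have covered them. Of the 4790 such stretches in Il11ra1, 1722 (35.95%) occurred in another gene, all 1722 of them in the copy Gm13305 and 616 of them in Il11ra2. Of the 4072 stretches in Fam205a1, 2455 (60.29%) were shared, 2446 with Fam205a4 and 2307 with each of Fam205a2 and Fam205a3. The reads of Il11ra1 and Fam205a1 are therefore uncertain where counting could split them between copies. Those of Fam205c are not limited in this way by the transcripts searched. Exons of Il11ra1 overlapped those of another gene by 8 bases, with Ccl27a on the opposite strand, and exons of Fam205a1 and Fam205c overlapped none.

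The starts of the 3 genes are shown because their levels moved together across libraries, along with the start of Galt, the neighbour whose levels were most like theirs. Each sequence is the RefSeq promoter window of GRCm38.p6, 250 bases before the start to 50 bases after it, and capitals mark every match, on either strand, to the TATA box TATAAA, the box CCAAT, the GC box GGGCGG, the CRE-like TGACGT or the pattern TTCNNNGAA, which STAT factors bind. Il11ra1 is at chr4:41760193-41760492 (plus strand), Galt at chr4:41755267-41755566 (plus), Fam205a1 at chr4:42853839-42854138 (minus) and Fam205c at chr4:42874185-42874484 (minus).
Il11ra1: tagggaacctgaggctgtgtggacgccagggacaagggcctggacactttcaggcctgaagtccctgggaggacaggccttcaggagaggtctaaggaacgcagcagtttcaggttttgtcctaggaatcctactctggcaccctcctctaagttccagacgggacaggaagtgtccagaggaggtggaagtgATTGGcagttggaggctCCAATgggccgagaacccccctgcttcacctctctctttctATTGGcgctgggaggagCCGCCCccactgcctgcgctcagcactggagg
Galt: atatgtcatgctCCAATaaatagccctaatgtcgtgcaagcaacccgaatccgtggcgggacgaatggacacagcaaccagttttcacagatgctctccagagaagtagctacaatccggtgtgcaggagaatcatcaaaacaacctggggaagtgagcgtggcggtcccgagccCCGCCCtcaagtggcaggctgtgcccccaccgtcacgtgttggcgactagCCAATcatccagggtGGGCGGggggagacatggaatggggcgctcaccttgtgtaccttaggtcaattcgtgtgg
Fam205a1: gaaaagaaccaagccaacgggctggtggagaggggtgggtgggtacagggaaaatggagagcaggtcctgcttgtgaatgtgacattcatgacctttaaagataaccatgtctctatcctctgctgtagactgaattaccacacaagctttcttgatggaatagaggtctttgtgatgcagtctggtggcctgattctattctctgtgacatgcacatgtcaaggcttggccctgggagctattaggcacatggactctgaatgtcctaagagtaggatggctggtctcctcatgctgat
Fam205c: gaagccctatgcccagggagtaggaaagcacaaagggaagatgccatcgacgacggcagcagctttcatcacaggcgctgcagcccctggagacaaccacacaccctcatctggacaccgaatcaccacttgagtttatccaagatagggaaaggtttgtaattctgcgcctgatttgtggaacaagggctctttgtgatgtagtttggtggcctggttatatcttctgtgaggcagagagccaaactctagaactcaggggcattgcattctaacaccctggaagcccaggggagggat
The Il11ra1 window held 3 matches to CCAAT and 1 to GGGCGG, and that of Galt 2 and 2. RefSeq lists a second, downstream start for both genes, with windows at chr4:41762060-41762359 (Il11ra1) and chr4:41756012-41756311 (Galt), not printed: that of Il11ra1 held 1 match to GGGCGG, no CCAAT and 3 CpG, and that of Galt no match and 13 CpG. The windows of Fam205a1 and Fam205c held no match to any of the 5 patterns, which says only that these letters are absent there. Among 32851 promoter windows of the same length, CCAAT occurred in 37.4%, GGGCGG in 35.7%, TATAAA in 13.6%, TTCNNNGAA in 8.3% and TGACGT in 7.51%. The window of Fam205a1 held 1 CpG, against a median of 7 over all windows, and the printed windows of Fam205c, Il11ra1 and Galt held 6, 7 and 16.

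The libraries held 7454165 to 15462544 counts. They also differed in a background measured by 1953 autosomal olfactory and vomeronasal receptor genes, which cortical neurons hardly use: their summed share was above 1500 CPM (counts scaled to 1000000 per library) in 6 libraries (eGFP 1 to 4, eGFP-GluA2 1 and 3), below 500 CPM in 5 (eGFP 7 to 9, eGFP-GluA2 6 and 7) and in between in the other 5. This background differed between the groups by -0.17 on the log2 scale (two-sided exact permutation test, p = 0.865). The noncoding RNA gene Gt(ROSA)26Sor had 1.91 to 5.24 CPM in the eGFP libraries and 12.7 to 25.1 CPM in the eGFP-GluA2 libraries, and Gria2, which encodes GluA2, had 472 to 783 against 718 to 1215 CPM, so the libraries went with their labels for Gt(ROSA)26Sor without overlap. Pvalb, the gene that defines the sorted cells, was present in every library at 85.5 to 461 CPM.

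Fam205c showed 2 separate levels among the eGFP libraries and only the upper one among the eGFP-GluA2 libraries. It had 3.31, 2.08, 2.82, 3.27, 22.7, 1.22, 0.413, 18.1 and 21.8 CPM in eGFP libraries 1 to 9, and 15.4, 25.1, 31.4, 20.2, 38.9, 15.7 and 15.0 CPM in eGFP-GluA2 libraries 1 to 7. The groups overlapped: eGFP libraries 5, 8 and 9 lay within the range of the eGFP-GluA2 libraries, the other 6 eGFP libraries lay below every eGFP-GluA2 library, and no library had a value between 3.31 and 14.97 CPM. The raw counts behind the lower values were 5 to 41, against 153 to 355 in the others. Group means were 8.42 ± 9.48 CPM (SD, n = 9) in eGFP and 23.1 ± 9.24 CPM (SD, n = 7) in eGFP-GluA2, a log2 fold change of 1.45 ± 0.63 (SE) in the edgeR fit, which is a mean over eGFP libraries that do not share one level. The value moved by more than 1.5 times with the libraries kept, to 0.81 without the 6 high-background libraries, and with the method, to 2.38 by limma-voom.

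Fam205a1, 14 kb from Fam205c, separated the same libraries. Its CPM in eGFP libraries 1 to 9 were 1.22, 1.42, 0.911, 1.44, 6.73, 1.71, 0.910, 5.05 and 4.59, and in eGFP-GluA2 libraries 1 to 7 they were 5.83, 7.42, 13.5, 6.98, 11.01, 4.39 and 5.80. eGFP libraries 5, 8 and 9 again lay among the eGFP-GluA2 libraries and the other 6 below all of them. The log2 fold change was 1.56 ± 0.44 (SE), from means of 2.66 ± 2.18 CPM (SD, n = 9) and 7.85 ± 3.26 CPM (SD, n = 7). It was 1.14 ± 0.34 with the deposited counts of the near-identical copies added, 0.25 ± 0.12 with the copies added in the reads recovered from the authors' normalized table, and 0.90 without the high-background libraries.

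Il11ra1, the IL-11 receptor gene, which ends 1.08 Mb before Fam205a1, had the same order with a smaller step. It had 6.88, 8.49, 7.29, 7.19, 15.9, 3.91, 2.65, 11.6 and 10.7 CPM in eGFP libraries 1 to 9 and 13.4, 18.2, 19.6, 13.4, 21.3, 11.05 and 10.1 CPM in eGFP-GluA2 libraries 1 to 7. The highest of the 6 low eGFP libraries, at 8.49 CPM, was close to the lowest of the remaining 10 libraries, at 10.1 CPM. Means were 8.29 ± 4.03 CPM (SD, n = 9) and 15.3 ± 4.39 CPM (SD, n = 7), a log2 fold change of 0.88 ± 0.29 (SE). Adding the deposited counts of the copies, which are few, gave 0.84 ± 0.28, and adding them in the reads recovered from the authors' normalized table gave 0.20 ± 0.22. Both groups thus overlapped in all 3 genes, while 5 of the 26257 genes tested (0.019%) had no overlap in CPM between the groups.

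**Figure D1:**
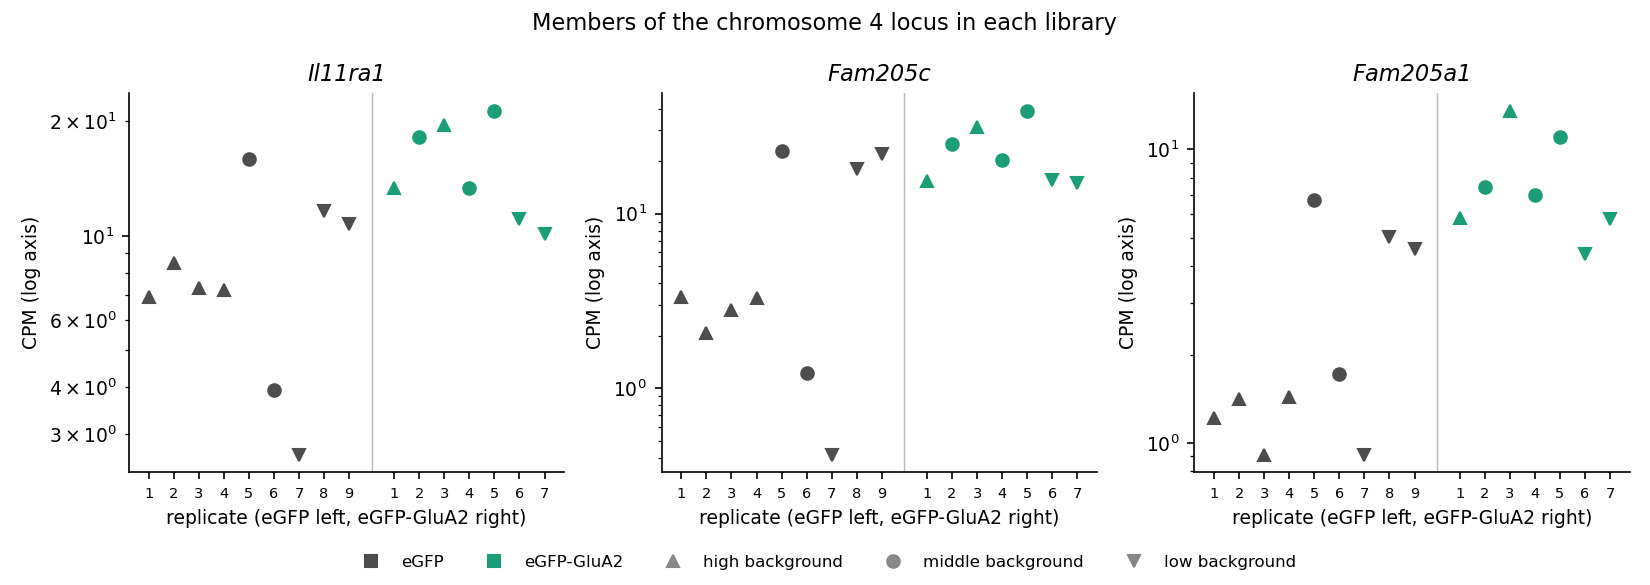
CPM (log axis) of Il11ra1, Fam205c and Fam205a1 in each library, 1 point per library, eGFP on the left and eGFP-GluA2 on the right of each panel, with the marker shape giving the background. For Fam205c, eGFP libraries 1 to 4, 6 and 7 lie between 0.413 and 3.31 CPM and the others at 14.97 CPM or more.

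The order of libraries differed from that of the background, whose part in it was not tested. Over the 16 libraries, Pearson r of log2 CPM with log2 background was 0.19 for Il11ra1, -0.06 for Fam205c and -0.11 for Fam205a1. Within the eGFP libraries these were 0.14, -0.17 and -0.40, and within the eGFP-GluA2 libraries 0.67, 0.45 and 0.59. Low values of Fam205c occurred in high-background libraries (eGFP 1 to 4), in a middle one (eGFP 6) and in a low one (eGFP 7), and high values occurred in all 3 kinds as well. Within the high-background libraries the mean log2 CPM of Fam205c was 2.88 higher in eGFP-GluA2 (2 libraries) than in eGFP (4 libraries). Within the middle libraries it was 2.26 higher (3 against 2) and within the low ones 1.31 higher (2 against 3). The corresponding differences were 2.68, 1.23 and 0.80 for Fam205a1 and 1.10, 1.11 and 0.59 for Il11ra1. The groups overlapped within the low-background libraries in all 3 genes, where eGFP 8 and 9 stand beside eGFP-GluA2 6 and 7.

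The spread of Fam205c among the eGFP libraries was wide for its level. Its SD of log2 CPM there was 1.86, larger than that of 99.2% of the 2527 tested genes within 0.5 of its average log2 CPM, whose median SD was 0.26. Among the eGFP-GluA2 libraries its SD was 0.54, larger than that of 92.1% of the same genes, whose median SD there was 0.26. The SDs of Il11ra1 were 0.77 and 0.41, and those of Fam205a1 were 1.03 and 0.55, in eGFP and eGFP-GluA2. Against tested genes of similar level, these lay above 92.7% and 77.5% for Il11ra1 and above 76.1% and 60.7% for Fam205a1. Across the 16 libraries the log2 CPM of Il11ra1 and Fam205c had a Pearson r of 0.94, Fam205c and Fam205a1 of 0.93, and Il11ra1 and Fam205a1 of 0.88. Within the 7 eGFP-GluA2 libraries alone, which do not contain the step between groups, these were 0.95, 0.90 and 0.87. In CPM, eGFP-GluA2 2, 3 and 5 were the highest 3 of these libraries in each gene. The points share the library and its depth, and the correlations are descriptions over libraries.

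The second deposited quantification, in TPM (transcript levels scaled by length and library), separated the same libraries for both Fam205 genes. Fam205c had 0.317 to 1.40 TPM in the 6 low eGFP libraries, 6.67 to 11.7 TPM in eGFP 5, 8 and 9, and 6.28 to 17.4 TPM in the eGFP-GluA2 libraries. Fam205a1 was listed at 0 in eGFP 6, had at most 0.143 TPM in the other 5 low libraries, and 0.708 to 2.96 TPM in the remaining 10. Il11ra1 had 0.667 to 5.94 TPM in eGFP and 4.76 to 9.59 TPM in eGFP-GluA2, and here 5 rather than 6 of its lowest libraries were those of Fam205c. Among the eGFP-GluA2 libraries the order of Il11ra1 in TPM was not that in CPM. It was lowest in library 5 (4.76 TPM) and highest in libraries 3, 6 and 1 (9.59, 7.79 and 7.39 TPM). On this per-length scale the order of the genes differed between libraries: the ratio of Fam205c to Il11ra1 in TPM was 0.216 to 0.531 in the 6 low eGFP libraries and 1.04 to 3.32 in the others. In the authors' deposited table of their own comparison, which gives fold changes as the authors computed them, the log2 fold changes were 0.45 (SE 0.15) for Il11ra1, 0.26 (SE 0.12) for Fam205c and 0.25 (SE 0.11) for Fam205a1, smaller than those from the counts. The edgeR fits of the reads recovered from that same table, given below, were larger for Il11ra1 and Fam205a1. The authors' estimates and those of edgeR are therefore not on one scale, and their sizes cannot be compared directly.

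The near-identical copies on chromosome 4 held few deposited counts. Il11ra2 had 0 counts in all 16 libraries, Gm13305 3 counts in all, Fam205a4 10, Fam205a3 19 and Fam205a2 2. Copies on scaffolds outside the assembled chromosomes held more: a second Fam205a2 (ENSMUSG00000079774) had 128 counts, with a mean of 0.947 CPM in eGFP and 0.443 CPM in eGFP-GluA2, and an Il11ra2 (ENSMUSG00000095456) had 28. In eGFP 1 that Fam205a2 had 19 counts, against 14 for Fam205a1. The authors' normalized table placed more there: the reads recovered from it were 15 to 176 for Gm13305 and 17 to 129 for Fam205a4. Gm13305 had 132, 168, 176, 165, 45, 88, 74, 16 and 24 recovered reads in eGFP libraries 1 to 9, and 99, 31, 50, 48, 15, 44 and 20 in eGFP-GluA2 libraries 1 to 7. Among the eGFP libraries it was thus higher in the 6 where Il11ra1 was low (18 to 90 recovered reads) than in eGFP 5, 8 and 9 (92 to 168 for Il11ra1). Fam205a4 had 73 to 129 recovered reads in 8 of the 9 eGFP libraries, among them eGFP 6 with 110, where Fam205a1 had 0. In eGFP 1 Fam205a4 had 17, where Fam205a3 had 85 and the chromosome 4 Fam205a2 had 84. In eGFP 7 Fam205a4 had 85, and Fam205a3 and the chromosome 4 Fam205a2 had 68 each. The values of Fam205a4 alone therefore do not give those of all copies together.

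Adding the copies in the recovered reads lowered the log2 fold changes of Il11ra1 and Fam205a1 between the groups. Il11ra1 with its copies had 174, 221, 251, 255, 213, 113, 92, 125 and 116 recovered reads in eGFP libraries 1 to 9 and 219, 154, 229, 206, 114, 218 and 142 in eGFP-GluA2 libraries 1 to 7, with no separation of the 6 libraries. Its log2 fold change in the recovered reads was 1.03 ± 0.33 (SE) alone and 0.20 ± 0.22 with the copies. Fam205a1 with its copies had 181 to 261 recovered reads in eGFP and 182 to 298 in eGFP-GluA2, and its log2 fold change was 1.84 ± 0.75 alone and 0.25 ± 0.12 with the copies. For these 2 genes the log2 fold change therefore depended on whether the copies were added. In eGFP libraries 1 to 9 Fam205a1 had 8, 7, 3, 9, 84, 0, 1, 65 and 63 recovered reads alone. With its copies it had 194, 181, 261, 251, 254, 220, 222, 211 and 217 in the same libraries. Whether reads were assigned to one copy rather than another was not tested. Fam205c, which shared no stretch of 75 bases with the transcripts searched, had 4 to 15 recovered reads in the 6 low eGFP libraries. It had 71 to 184 in the other 10.

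Besides the 3 genes, 53 genes of the window were counted and 11 had enough counts to be tested. Of these, 0 passed edgeR's quasi-likelihood test at an adjusted p of 0.05, against 1 of 26257 genes (0.00381%), Gt(ROSA)26Sor. At an unadjusted p under 0.05 there were 4 of 11, Galt and Ccl27a with positive and the pseudogenes Gm12407 and Gm10601 with negative differences, against 1.12% of all genes tested. The window was drawn around genes chosen for this contrast, so these counts are not independent of that choice. DESeq2, which called 0.0154% of the genes it tested, also called 0 of the neighbours.

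Galt, which encodes galactose-1-phosphate uridylyltransferase of galactose breakdown and ends just before the main start of Il11ra1, followed the members closely. It had 10.4, 12.8, 10.8, 9.98, 19.4, 10.03, 11.1, 23.3 and 25.1 CPM in eGFP libraries 1 to 9, and 19.1, 31.7, 24.4, 21.1, 29.9, 20.9 and 20.9 CPM in eGFP-GluA2 libraries 1 to 7. Its 6 lowest libraries were those of Fam205c in CPM and in TPM. Its log2 fold change of 0.70 ± 0.22 (SE) did not pass (adjusted p = 1.00 by edgeR). Its Pearson r was 0.91 with Fam205c and 0.84 with Il11ra1.

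Ccl27a, a chemokine gene that meets the end of Il11ra1, depended on the quantification. In CPM it had a median of 17.4 (10.3 to 29.7) in eGFP and 28.8 (17.6 to 36.7) in eGFP-GluA2, a log2 fold change of 0.56 ± 0.22 (SE) with an adjusted p of 1.00 by edgeR. In the reads recovered from the authors' table it was -0.00094, so the direction was lost. Of its 75-base stretches, 33.3% occur in other genes.

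Other tested neighbours showed no such order. Dctn3, a dynactin subunit, had a log2 fold change of -0.04 ± 0.30 (SE), Cntfr, the receptor for ciliary neurotrophic factor, 0.15 ± 0.15, and Enho, which encodes the peptide adropin, 0.01 ± 0.31. Rpp25l had 0.25 ± 0.20 and Arid3c 0.23 ± 0.95. The signs of Dctn3, Enho and Arid3c changed with the setting. Rpp25l, Dctn3, Arid3c and Galt lie inside the span of the longest annotated Il11ra1 transcript, and among them only Galt shared its 6 lowest libraries with Fam205c. Of the 53 counted neighbours, 1 that was too low to be tested also did, 4930578G10Rik at chr4:42735545-42846248, singled out after its values were seen. It had 0 counts in those 6 libraries and 6 to 25 in the other 10, while its recovered reads, 45 to 85 in the 6 and 25 to 78 in the others, had no such step.

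The pseudogenes Gm12407 and Gm10601 did not pass either, with values that ran against the members. Gm12407 had 28 to 54 counts in the eGFP libraries, and in eGFP-GluA2 libraries 1 to 7 it had 30, 5, 9, 31, 4, 35 and 31. The 3 lowest were eGFP-GluA2 2, 3 and 5, the libraries in which the members were highest in CPM. This order was absent from the recovered reads, where Gm12407 had 0 to 22 in eGFP and 7, 6, 11, 4, 1, 9 and 8 in eGFP-GluA2 libraries 1 to 7. Its log2 fold change of -1.02 ± 0.36 (SE) had an adjusted p of 1.00 by edgeR, and that of Gm10601 was -0.89 ± 0.37. Gm12407 shares 149 of its 250 stretches of 75 bases with Ccl19 and 2 other copies.

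Of 97 genes within 1 Mb on either side, 62 were tested and 0 passed (0.00381% of all genes tested passed). Of the 62 log2 fold changes, 34 were above 0, with a median of 0.02. AI464131, at -0.59 ± 0.18 (SE), was the 1 gene of the 62 with an unadjusted p under 0.05 in edgeR, against 1.12% of all genes tested. Phf24, 42 kb beyond the Fam205c gene and encoding a protein that binds inhibitory G proteins, had a median of 177 CPM (90.1 to 252) in eGFP and 243 CPM (124 to 312) in eGFP-GluA2, a log2 fold change of 0.46 ± 0.25. In TPM its 6 lowest libraries were those of Fam205c, at 22.7 TPM or less, and the next library had 28.0 TPM.

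**Figure D2:**
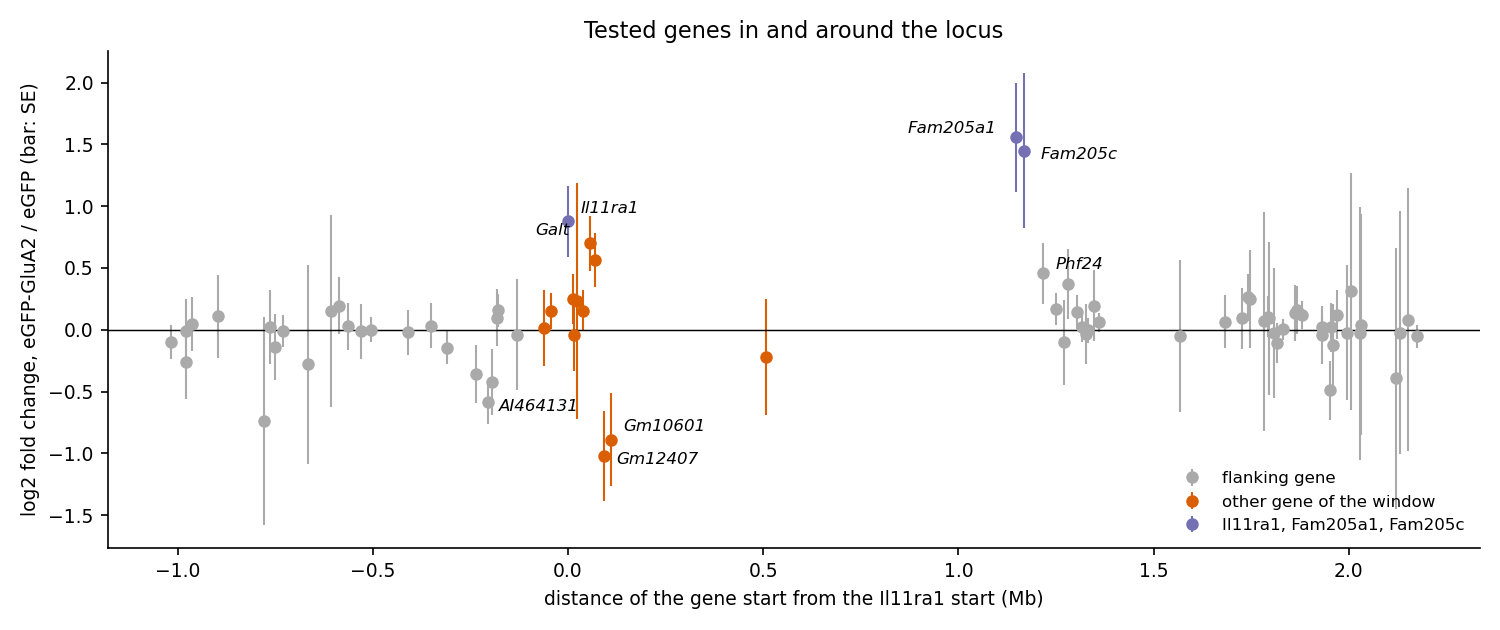
Log2 fold change of eGFP-GluA2 over eGFP (edgeR, bars are SE) for the tested genes against the distance of the gene start from that of Il11ra1, with the 3 chosen genes, the other 11 tested genes of the window and 62 flanking genes in separate colours. Fam205a1 and Fam205c lie at 1.56 and 1.45, and Galt at 0.70 next to Il11ra1 at 0.88, while the flanking genes have a median of 0.02.

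Among the 25875 tested genes whose average log2 CPM was 0 or more, 6 (0.0232%) had the same 6 lowest libraries as Fam205c. They included Fam205c itself, Il11ra1, Fam205a1, Galt and Nudt14 on chromosome 12, which encodes a UDP-glucose pyrophosphatase. The same 6 libraries were the highest in 2 genes (0.00773%), Rec8, the meiotic cohesin subunit on chromosome 14, and the antisense gene Gm16206. Rec8 had 23.6, 29.3, 24.5, 23.8, 14.5, 30.6, 29.8, 16.3 and 19.0 CPM in eGFP libraries 1 to 9 and 11.7 to 18.2 CPM in eGFP-GluA2. This order of libraries was chosen after the values of Fam205c were seen.

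By Pearson r of log2 CPM over the 16 libraries, the genes outside the window most like Fam205c included Nudt14 (0.80), Gm17191 (0.71), Gm37137 (0.70) and Snora17 (0.68). For Fam205a1 they included Nudt14 (0.85), Rpl21-ps8 (0.75), Phf24 (0.72) and Rcc1 (0.70), and for Il11ra1 they were Gm37137 (0.80), Nudt14 (0.78), Gm41361 (0.77), Gm6705 (0.76) and Gm6159 (0.75). Inside the 7 eGFP-GluA2 libraries, r of Nudt14 with Fam205c was 0.39 and that of Galt 0.80. Rec8 was lowest, at -0.89 with Fam205c. The libraries differ in depth and background, which these points share.

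Vcp-rs, a copy of Vcp on the X chromosome, was among the genes most opposite to Il11ra1 (Pearson r -0.72), and the level of its low libraries was far from the rest. It had 27.2 to 70.2 CPM in the eGFP libraries, and 15.7, 7.56, 3.19, 34.8, 9.65, 34.8 and 38.0 CPM in eGFP-GluA2 libraries 1 to 7. The 3 lowest, eGFP-GluA2 2, 3 and 5, were again the libraries with the highest Fam205c, and in the recovered reads they held 28, 17 and 17 reads against 261 to 1288 in the other 13 libraries. Of the 75-base stretches of Vcp-rs, 77.44% occur in Vcp, which lies on chromosome 4 at chr4:42979963-43000507, next to the window. Vcp itself, the ATPase that extracts proteins for degradation, had 211, 105 and 218 CPM in eGFP-GluA2 2, 3 and 5. The other 13 libraries had 63.1 to 204 CPM, so Vcp was highest in eGFP-GluA2 5 and 2 but not in eGFP-GluA2 3.

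**Figure D3:**
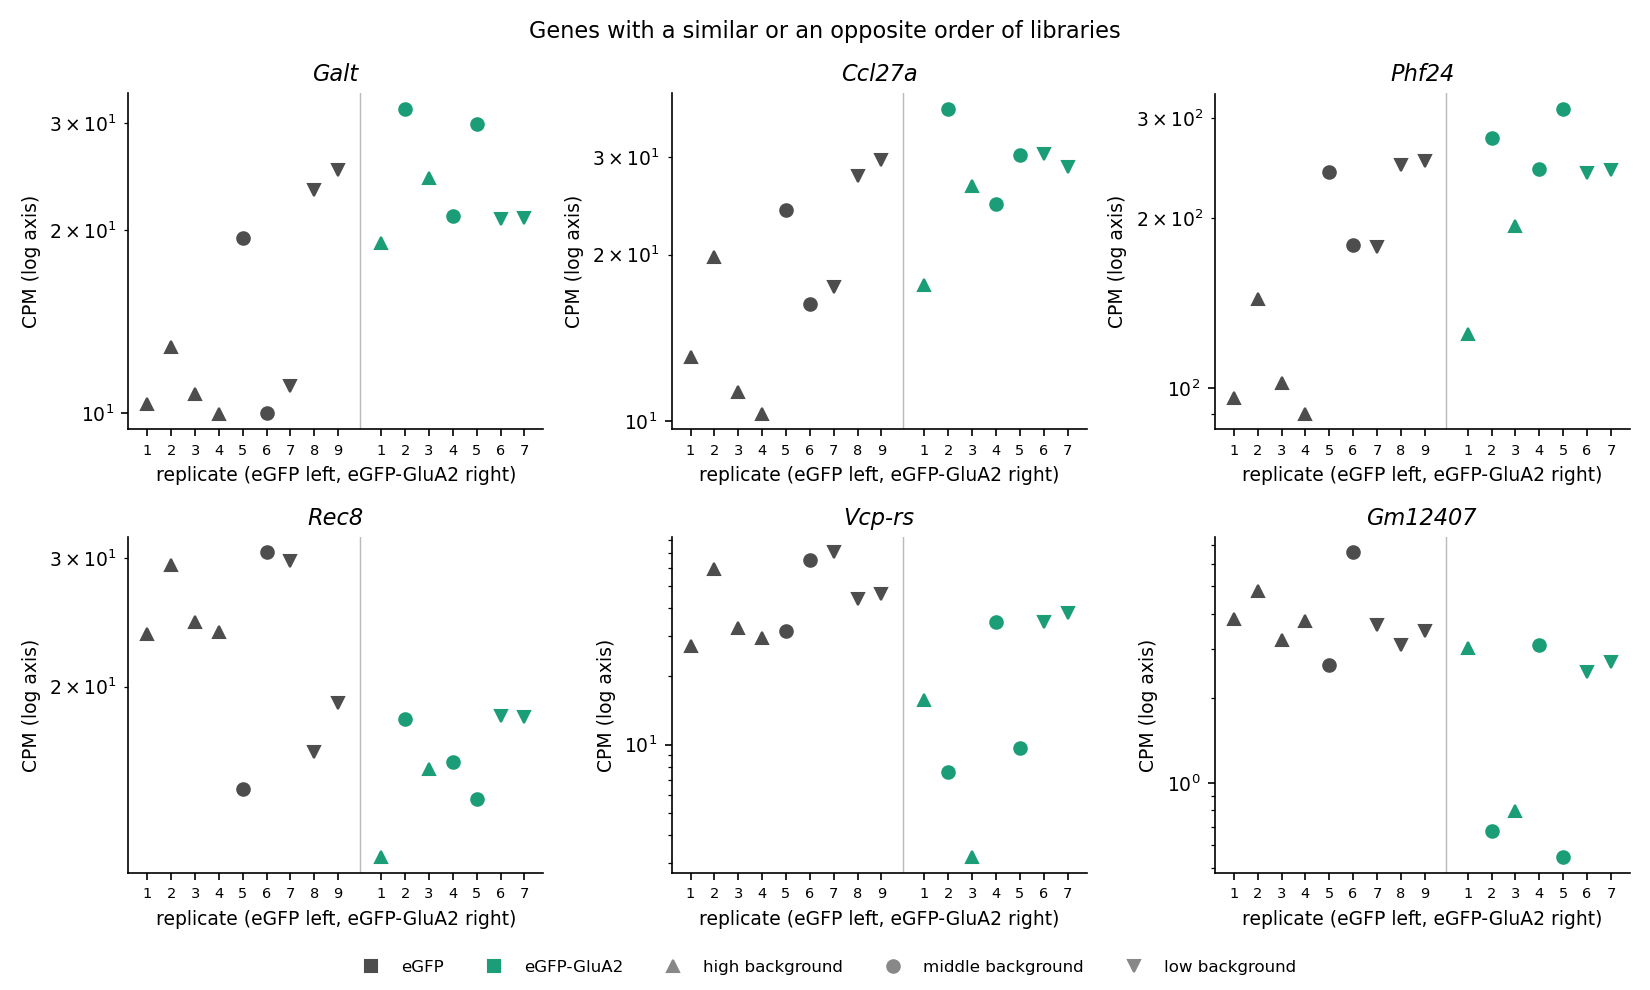
CPM (log axis) per library, with the groups and background marked as in the plot of the members. Galt, Ccl27a and Phf24 followed the order of Fam205c in whole or in part. Rec8, Vcp-rs and Gm12407 ran against it in whole or in part. Of the 6 low eGFP libraries of Fam205c, 3 were among the 6 highest of Vcp-rs and 2 among its 6 lowest. Vcp-rs and Gm12407 have their 3 lowest CPM values in eGFP-GluA2 libraries 2, 3 and 5.

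The genes of the IL-6 family around the IL-11 receptor did not pass the test between the groups. Of its 29 other genes on the list, 25 were tested and 0 passed in either direction (0.00381% of all genes tested passed), with 12 of the 25 log2 fold changes above 0 and a median of -0.01, against -0.02 over all genes tested. At the receptors, Lifr, which encodes the receptor for leukaemia inhibitory factor, had a log2 fold change of 0.16 ± 0.24 (SE), and Il6st, the shared chain, -0.09 ± 0.19. Per length, the median of Il6st was 11.7 TPM in eGFP and 11.5 TPM in eGFP-GluA2, above the 3.53 and 6.92 TPM of Il11ra1, and Lifr had 21.4 and 22.4 TPM. Cntfr, which is also a gene of the window, had medians of 20.6 and 23.0 TPM.

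Downstream, Jak1 had -0.01 ± 0.24, Ptpn11, a phosphatase of the pathway, 0.06 ± 0.21, the adaptor Grb2 0.04 ± 0.24 and Stat3 0.06 ± 0.12 (log2 fold change ± SE). The feedback inhibitor Socs3 had a median of 2.17 CPM in eGFP and 2.70 CPM in eGFP-GluA2. Il11, the ligand, had at most 2.24 CPM in eGFP and 3.42 CPM in eGFP-GluA2 and no counts in some libraries of each group. Il6ra ranged from 0.173 to 10.4 CPM and Osmr from 0.260 to 12.5 CPM, both with their lowest 5 values in the 5 low-background libraries.

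**Figure D4:**
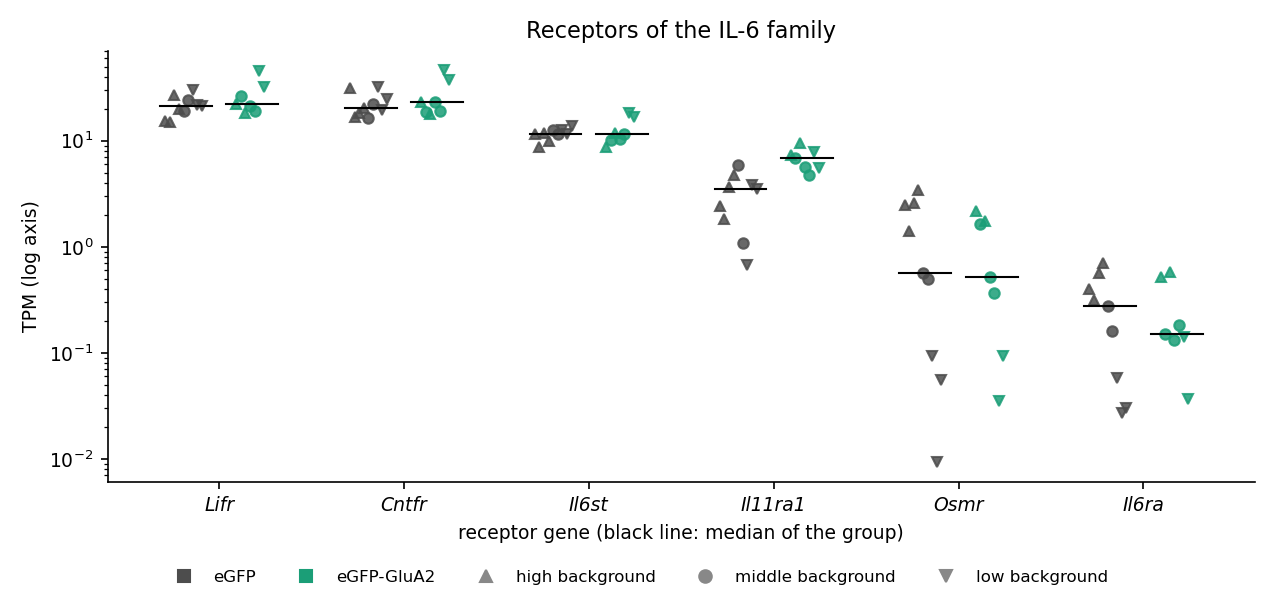
TPM (log axis) of 6 receptor genes of the IL-6 family, 1 point per library, with a black line at the median of each group and the marker shape giving the background. Il11ra1 has medians of 3.53 TPM in eGFP and 6.92 TPM in eGFP-GluA2, while Osmr is lowest in the low-background libraries. Il6ra is too, except that the middle-background eGFP-GluA2 4 (0.134 TPM) lies below the low-background eGFP-GluA2 6 (0.140 TPM).

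Of the 10 SPATA31 and FAM205 relatives on the list, 5 that are not members were tested, and 0 passed. Over all genes tested 0.00381% passed, so none would be likely to pass in a list this short. Markers of spermatogenic cells, in which this family is known, summed to 9.82 to 30.2 CPM in eGFP and 10.2 to 29.1 CPM in eGFP-GluA2, with a Pearson r of -0.14 with Fam205c over the 16 libraries. Markers of PV interneurons, all 12 tested with 0 passing, summed to 4201 to 11893 CPM in eGFP and 4614 to 11402 CPM in eGFP-GluA2, and their r with Fam205c was 0.14. Markers of other cell types were present at lower sums: those of oligodendrocytes summed to 74.4 to 188 CPM (median 98.0) in eGFP and 108 to 141 CPM (median 127) in eGFP-GluA2, with an r of 0.50 with Fam205c, the highest of the cell types, and their part in the result was not tested. Astrocyte markers had an r of 0.22 and microglial markers 0.26. In sorted bulk RNA, fewer cells with a transcript and less transcript per cell cannot be told apart.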

How the data were processed

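RNA was sequenced as 150-bp paired-end reads. Per the submitters' processing notes and the series' design text, reads were processed with bcbio-nextgen 1.2.3, aligned to GRCm38 with STAR and quantified per gene with Sailfish, and compared with DESeq2. The sources used here name no aligner settings and no strandedness. The authors deposited whole-number counts per gene, TPM, a table of normalized signal (counts divided by size factors) and their own comparison with log2 fold changes, p-values and a score (the Wald statistic). Whole reads were recovered from the normalized table (100% of values whole within 0.001; 10477517 to 17382059 reads per library).

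Ensembl IDs were named from GENCODE M21 (54495 of 54532). Counts were tested with edgeR 4.0.16 (TMM, quasi-likelihood, genes kept by expression: 26257), eGFP-GluA2 against eGFP, with Benjamini-Hochberg adjustment over all of them; CPM are TMM-scaled, log2 CPM use a prior count of 2. The spread between libraries, 1 cortex each, is what the p-values measure. Alternatives used limma 3.58.1, DESeq2 1.42.0 and sva 3.50.0, other scalings, filters and pseudocounts, and each library left out. Named genes were the 3 members, the most abundant window and IL-6 genes and the 5 genes most like each member; Phf24, Vcp, Vcp-rs, Rec8, AI464131 and the copies were chosen with values in view. Members and lists were chosen with earlier results of these data known. Results for some genes that these rules name are not reported here.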

Additional observations from a re-analysis of the deposited data

How the results depend on the processing

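The log2 fold changes of the 3 genes kept their direction under every alternative that was run: 0.20 to 1.33 for Il11ra1, 0.81 to 2.69 for Fam205c and 0.25 to 2.17 for Fam205a1, and with each library left out in turn 0.76 to 1.03, 1.29 to 1.79 and 1.37 to 1.87. The lowest values, 0.195 (SE 0.221) for Il11ra1 and 0.249 (SE 0.117) for Fam205a1, came from recovered reads with the near-identical copies added, an alternative chosen after seeing the data. No neighbour, flanking or IL-6 family gene was called under the alternatives, each library left out included, with 1 exception: with the replicate number as a block, 2 window neighbours passed instead of 0, Galt (log2 fold change 0.97, adjusted p = 0.00199, edgeR) and Ccl27a (0.79, adjusted p = 0.0481). The block keeps 14 libraries and leaves out eGFP 8 and 9, and without the block the same 14 gave 0. The labels do not say what a shared number means. Deviations from the group means correlated above 0.1 in 6 of 7 same-numbered pairs (-0.03 to 0.90), not in every pair, so the numbers were not used as a pairing, and 2 of 7 libraries correlated best with their own number. Over all genes, 8 of 25633 were called with the block, 8 by DESeq2, 9 with the background covariate, 9 with 1 surrogate variable, 3 on recovered reads, 3 on log2(TPM + 0.1), 2 on the other TPM fits and with upper-quartile scaling, and 3 without the high-background libraries, against 1. Small differences changed sign. With the replicate block, Dctn3 became 0.0945, Jak1 0.0873 and Arid3c -0.403, and without it on the same libraries 0.0894, 0.0798 and -0.135. On log2(TPM + 0.5), + 0.1 and + 1, Dctn3 was 0.0139, 0.0131 and 0.0147, Jak1 0.135, 0.137 and 0.133, and Il6st 0.0775, 0.0791 and 0.0755, and with no filter these were 0.0139, 0.135 and 0.0775. On recovered reads Ccl27a was -0.00094, Enho -0.0480, Jak1 0.0317, Grb2 -0.0172 and Stat3 -0.0061. Enho was -0.0221 with the background covariate, -0.0056 with 1 surrogate variable and -0.0522 without the high-background libraries, where Grb2 was -0.0324. Without the low-background libraries Dctn3 was 0.111 and Jak1 0.0449. With single libraries left out Dctn3 ranged from -0.134 to 0.0904, Enho from -0.0952 to 0.137, Arid3c from -0.377 to 0.477, Jak1 from -0.0961 to 0.0994, Ptpn11 from -0.0093 to 0.164 and Grb2 from -0.0491 to 0.151. The cause of these changes was not tested. Low counts, 5 to 41 for Fam205c in 6 libraries, limit the precision of its lower level.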
